A study of Saccharomyces cerevisiae with 8 samples.

Results

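Cells of BY4743, a diploid laboratory strain of budding yeast in the S288C background labelled wild-type in genotype, gave 8 libraries of poly(A) RNA. The 4 libraries described here are those labelled as selectively cured of [SMAUG+], a prion form of the RNA-binding protein Vts1. Of these, 2 came from cells held for 14 h in SPO, a sporulation medium, and 2 from the saturated culture in preSPO medium after 48 h, from which the SPO cells were moved. The other 4 libraries, labelled prion and grown in the same way, are used only for comparison and for the estimate of spread. The composition of the media is not given in the labels. All 6713 targets of the deposited tables were read, and 6346 had counts high enough to be tested. Nothing in the labels says that the replicates came from separate cultures, so p-values measure the spread between these libraries, which may be technical.

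Sporulation is the program by which a diploid yeast cell, given a nonfermentable carbon source such as acetate and little nitrogen, passes through meiosis and wraps its haploid nuclei in spore walls. The transcription factor Ime1 starts it and, with the DNA-binding protein Ume6, turns on early genes of recombination and chromosome pairing, many of which carry the URS1 element. The factor Ndt80 then turns on middle genes of the meiotic divisions and spore formation through the middle sporulation element (MSE), a site that the repressor Sum1 occupies during growth. Strains of the S288C background are known to sporulate poorly. Before and beside this program, cells without glucose are known to turn to respiration, the glyoxylate cycle and gluconeogenesis, and to reduce ribosome production.

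Estimated counts summed to 4650288 and 71684771 in cured SPO replicates 1 and 2, and to 6246205 and 21796873 in cured preSPO replicates 1 and 2. Replicates were not the same library deposited again, since their counts differed by far more than sampling noise (chi-square per degree of freedom 160.3 between the SPO libraries and 41.4 between the preSPO libraries). Over tested genes the cured SPO libraries had a Spearman correlation of 0.968 with each other, and the prion SPO libraries of 0.989. Cured SPO replicate 1 correlated with prion SPO replicates 1 and 2 at 0.985 and 0.975. For cured SPO replicate 2 the values were 0.976 and 0.983, so the cured SPO libraries were less alike than any other SPO pair. MET17, a gene of sulfur assimilation, had 447 and 13 counts in the cured SPO libraries, against 0 and 1 in the cured preSPO libraries. In the prion libraries it had 1363 and 1 counts in SPO, against 3207 and 3867 in preSPO. The libraries labelled cured SPO replicate 1 and prion SPO replicate 2 thus depart from the others of their state in this gene; whether their labels are right was not tested, and no change is given for MET17 itself. Without both libraries 12 of the genes named here lost their call, with adjusted p between 0.054 and 0.20 (edgeR): ADH1, CDC11, COX5B, DIT1, GDH1, HOP1, MER1, MSH4, NDT80, PIP2, RGI1 and ZIP1. Counts of gene groups that moved by more than 1.5 times without them are given beside the groups. VTS1, which encodes the prion protein, stood at 15.9 and 11.2 CPM in SPO, against 56.5 and 56.8 CPM in preSPO (log2 fold change -2.11, SE 0.338, edgeR adjusted p = 0.000959). Levels are given as CPM, counts scaled to a common library size by the TMM method, and fold changes as the log2 of SPO over preSPO on the same scale. Comparisons between genes use TPM, which also divides by length.

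In SPO medium 1816 of the 6346 tested genes rose and 1817 fell (28.6% each, 57.2% in either direction; edgeR quasi-likelihood test, Benjamini-Hochberg adjusted p under 0.05). The changes upward were the larger ones. Among calls with a log2 change of at least 4, 99 genes rose and 10 fell, and at 8 or more 16 rose and 2 fell. In 78.6% of genes the SPO libraries did not overlap with the preSPO libraries. Group members named below for small p or large change separate the media largely because of that choice. The balance of higher and lower calls depended on the scaling, and a few targets took a much larger share of the SPO libraries. Scaled by library size alone, 1081 genes rose and 2495 fell (56.4% in either direction), with the median over all genes shifted by -0.40 on the log2 scale. On log2(TPM + 1), tested with limma-trend, 549 rose and 3464 fell (8.65% and 54.6%, 63.2% in either direction), with a shift of -0.92. DESeq2 called 58.2% in either direction, and edgeR's test against a log2 change of 1 called 10.4% higher. On all 3 scales 537 genes were higher and 1815 lower, and each group of genes below is given with its count on all 3. Group counts stand against 28.6% of all genes each way under TMM, and against 537 and 1815 of 6346 on all 3. Library size and log2 TPM shifted the median down, so the count on all 3 is a check of rises. For falls it hardly is, as 1815 of the 1817 lower calls stayed. In such bulk libraries fewer cells of a type and less RNA per cell cannot be told apart.

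**Figure D1:**
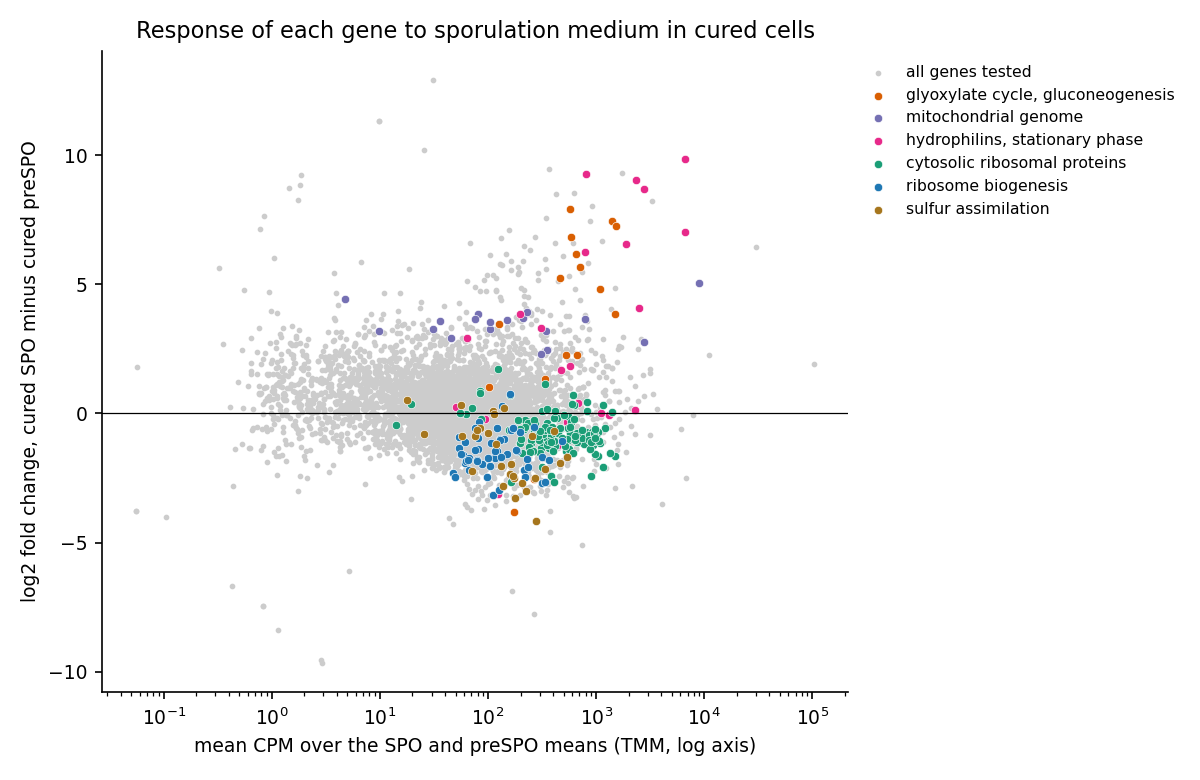
Log2 fold change of SPO over preSPO (TMM scale) on the vertical axis against mean expression on the horizontal axis for 6346 genes of the cured libraries. Colours mark gene groups, whether their members were called or not, and all other genes are grey. The groups are glyoxylate cycle and gluconeogenesis, mitochondrial genome, stationary phase, ribosomal proteins, ribosome biogenesis and sulfur. The genes furthest above 0 reach 8 and more, while 10 called genes lie at or below -4.

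The SPO libraries were dominated by fewer kinds of RNA than the preSPO libraries. The most abundant targets that together held 50% of all TPM numbered 19 and 8 in SPO, against 120 and 103 in preSPO. Genes called higher held 71.2% and 76.4% of TPM in SPO, against 28.0% and 29.2% in preSPO. Genes called lower held 9.09% and 7.19% in SPO, against 38.7% and 36.2% in preSPO. These genes were called in the same libraries, so the direction follows from the choice and only the size is informative. The higher genes include TAR1, at 20.7% and 19.9% of TPM in SPO, and YNL143C, both described below. The TAR1 rise of 1.92 was not called in the 4 cured libraries alone (edgeR adjusted p = 0.0666). Nor was it with state and replicate number together as a block (edgeR adjusted p = 0.0606). It was 1.61 without SPO replicate 2, 1.74 without preSPO replicate 1 and 2.11 without preSPO replicate 2. The 137 cytosolic ribosomal protein genes held 6.79% and 5.97% in SPO, against 22.9% and 22.5% in preSPO. The 22 genes of hydrophilins, small heat shock proteins and stationary phase held 9.92% and 9.33% in SPO, against 0.718% and 0.743% in preSPO. Both shifts were seen in each SPO library. Reading frames in the ribosomal DNA repeat, led by TAR1, which lies opposite a ribosomal RNA gene and cannot be told apart from it without a stated strand setting, held 29.1% and 25.2% in SPO, against 12.8% and 13.6% in preSPO, and genes of the mitochondrial genome 3.87% and 7.89% in SPO, against 0.329% and 0.493% in preSPO. Libraries were selected with oligo-dT, and how much RNA without a poly(A) tail each carried was not measured, so its part in these 2 shares was not tested. YNL143C, an uncharacterized reading frame, is a trait of a single library, with 766 TPM in SPO replicate 1 and 110900 TPM in SPO replicate 2, against 767 and 2267 TPM in the preSPO libraries. Its log2 fold change was 6.43 (edgeR adjusted p = 0.0182), and it was -0.37 without SPO replicate 2.

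**Figure D2:**
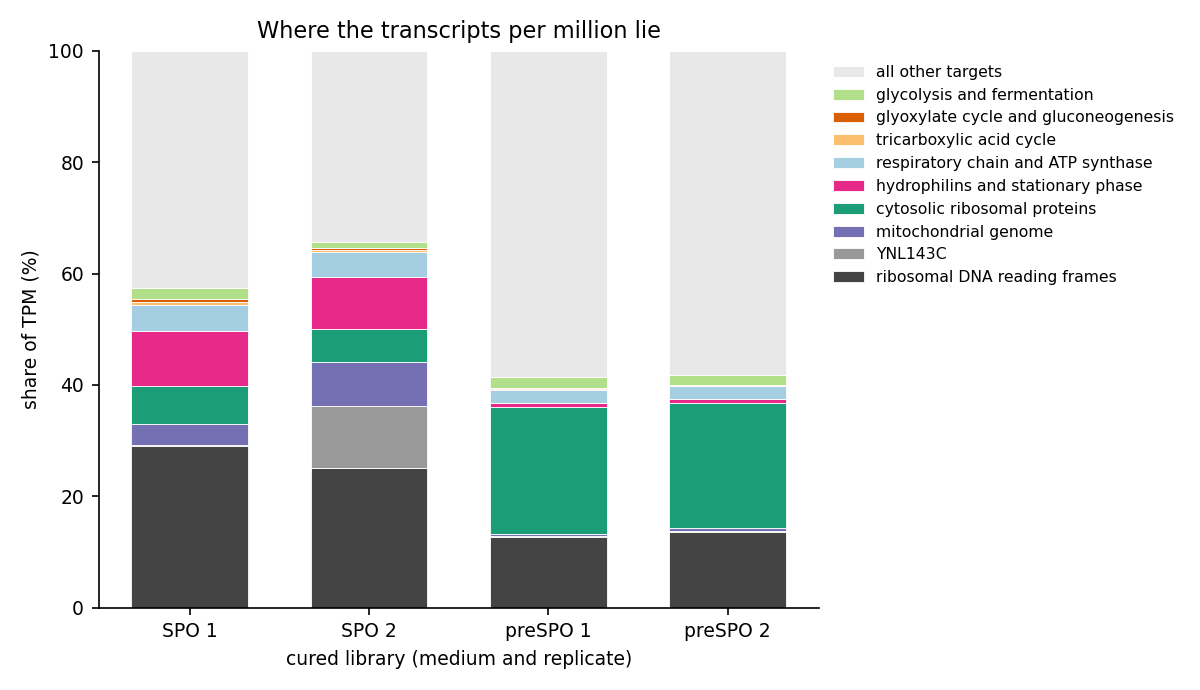
Share of all TPM, in percent, held by groups of targets in each cured library, SPO libraries left of preSPO libraries. Ribosomal protein genes narrow to 6.79% and 5.97% in SPO, against 22.9% and 22.5% in preSPO, and stress and stationary-phase genes widen to 9.92% and 9.33%, against 0.718% and 0.743%.

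Hydrophilins and stationary-phase genes gave 4 of the 10 largest rises named, SIP18, SPG1, RGI2 and GRE1. Of 22 members, all tested, 13 rose, 2 fell and 7 were not called, against 28.6% of all genes called in each direction. The median log2 fold change was 2.39, against 0.03 over all genes, and on all 3 scales the counts were also 13 and 2. SIP18, a hydrophilin that protects dry cells, stood at 10040 and 16360 CPM in SPO, against 4.98 and 22.5 CPM in preSPO. It rose by 9.86 (SE 0.857, edgeR adjusted p = 4.99e-05) and was, at 40540 and 43390 TPM, among the most abundant targets of the SPO libraries, against 35 and 135 TPM in preSPO. TPM of a short reading frame such as SIP18 depends strongly on the fragment length. The deposited tables imply a mean fragment of 160 bases in every library. SIP18 thus weighs heavily in the TPM share of its group. GRE1, its close relative, stood at 5807 and 5239 CPM in SPO, against 6.78 and 18.8 CPM in preSPO, and rose by 8.71. SPG1, a gene needed for survival in stationary phase, rose by 9.28, RGI2, a gene linked to respiratory growth, by 9.05, and SPG4 by 6.55. DDR2, a stress gene regulated by Msn2 and Msn4, stood at 1606 and 1524 CPM in SPO, against 17.7 and 23.0 CPM in preSPO, a rise of 6.25. In each of these genes, named for large change or small p, the lower SPO library lay far above the higher preSPO library. The response was not shared by all stress genes. HSP104, the disaggregase, had a log2 fold change of 0.14, YGP1, a secreted glycoprotein of nutrient limitation, -0.04, and SPI1, a wall protein of stationary phase, -0.32, none of them called under TMM. On log2 TPM all 3 of these were called lower, HSP104 at -0.86, YGP1 at -1.01 and SPI1 at -1.34, and SPI1 also under library size (-0.75). RGI1, the paralog of RGI2, fell by 1.23, a call lost without SPO replicate 1 or preSPO replicate 2, and DDR48 fell by 3.11. These last 5 genes were chosen after their values were seen.

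HSP12, a membrane-associated small heat shock protein long used as a marker of the general stress response, was likewise chosen after its values were seen. It stood at 11050 and 15040 CPM in SPO, against 62.4 and 138 CPM in preSPO, and rose by 7.02 (SE 0.722, edgeR adjusted p = 0.000107). Its upstream region is shown because it carries the stress response element AGGGG, bound by Msn2 and Msn4, in 2 copies on the opposite strand, from 232 to 228 and from 190 to 186 bases before the start codon (chrVI:106956-107255, R64, + strand; capitals mark the element).
HSP12: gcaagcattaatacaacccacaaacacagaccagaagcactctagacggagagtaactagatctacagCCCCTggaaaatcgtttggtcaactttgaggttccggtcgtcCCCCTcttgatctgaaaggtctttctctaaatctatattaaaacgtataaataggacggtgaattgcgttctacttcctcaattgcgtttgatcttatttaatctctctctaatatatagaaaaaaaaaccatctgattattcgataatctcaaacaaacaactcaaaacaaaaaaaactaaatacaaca
AGGGG, on either strand, was present in the 300 bases before the start codon in 31.5% of the 1643 higher genes with such a window and in 15.2% of the 1771 lower genes, against 22.3% of all 5808. In the stress list itself it was present in 45.5%, but members with it had a median log2 fold change of 0.33 and those without it of 3.70. MSN4, a factor that binds the element, stood at 53.7 and 57.6 CPM in SPO, against 593 and 337 CPM in preSPO, and fell by 3.06 (edgeR adjusted p = 6.67e-05).

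Genes of acetate use, the glyoxylate cycle and gluconeogenesis rose together. Of 16 members, all tested, 14 rose and 2 fell, with a median of 4.34, and 12 rose on all 3 scales. Uptake comes first: ADY2, the acetate transporter, stood at 3084 and 3875 CPM in SPO, against 4.15 and 6.56 CPM in preSPO (log2 fold change 9.30, SE 0.438, edgeR adjusted p = 3.42e-06). Its relatives ATO3 and ATO2 rose by 5.46 and 2.07, and JEN1, the lactate permease, by 5.12. ACS1, which makes acetyl-CoA from acetate, stood at 3203 and 2398 CPM in SPO, against 17.3 and 14.8 CPM in preSPO, and rose by 7.45. ICL1, isocitrate lyase, the first enzyme of the glyoxylate bypass, stood at 1631 and 1158 CPM in SPO, against 25.9 and 28.0 CPM in preSPO, and rose by 5.69. In ACS1 and ICL1, as in ADY2, replicates lay close together within each medium and the media were far apart. SFC1, the mitochondrial succinate and fumarate carrier that links the bypass to the respiratory chain, rose by 6.83, and MLS1, malate synthase, by 4.82. PCK1, which makes phosphoenolpyruvate, stood at 3013 and 3052 CPM in SPO, against 17 and 22.1 CPM in preSPO, and rose by 7.27. FBP1, fructose bisphosphatase, a key enzyme of gluconeogenesis, stood at 1070 and 1203 CPM in SPO, against 5.12 and 4.36 CPM in preSPO, and rose by 7.92 (SE 0.290, edgeR adjusted p = 3.41e-06). The 2 members that fell were DAL7, a malate synthase isozyme of the allantoin pathway, at -3.80, and VID24, which takes part in the degradation of gluconeogenic enzymes after glucose return, at -2.52. SFC1, MLS1 and VID24 were chosen after their values were seen.

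Regulators of carbon metabolism as a group lay near the background. Of 24 members tested, 8 rose and 6 fell (33.3% and 25%, against 28.6% of all genes each way), and 4 and 6 did so on all 3 scales. Without both libraries whose MET17 departs from their state 5 rose. The activators of gluconeogenic and ethanol-utilization genes rose: SIP4 stood at 353 and 262 CPM in SPO, against 25.1 and 30.2 CPM in preSPO (log2 fold change 3.47), ADR1 at 687 and 448 CPM, against 67.6 and 63.7 CPM (3.11), and CAT8 at 227 and 207 CPM, against 47.5 and 44.9 CPM (2.23). MIG2, a repressor that acts in glucose, stood at 52.8 and 71.6 CPM in SPO, against 250 and 266 CPM in preSPO, and fell by 2.04, and MTH1, a corepressor of glucose transporter genes, fell by 2.41. HAP4, the activating subunit of the respiratory regulator Hap2/3/4/5, had a log2 fold change of 0.31 and was not called under TMM. On log2 TPM it was called lower (-0.68, limma adjusted p = 0.0411). HAP4 was chosen after its value was seen. CCAAT, the core bound by the Hap complex, was present before 82.1% of the nuclear respiratory chain genes and 42.0% of all genes. Respiratory chain genes with it had a median log2 fold change of 1.84 and those without it of 2.58.

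Most genes of fatty acid beta-oxidation and of the carnitine shuttle that carries its acetyl units rose. Of 22 members tested, 16 rose and 6 fell (72.7% and 27.3%, against 28.6% of all genes each way), with a median of 3.12, and 13 and 6 did so on all 3 scales. POX1, the acyl-CoA oxidase that starts peroxisomal beta-oxidation, stood at 167 and 216 CPM in SPO, against 4.29 and 4.87 CPM in preSPO, and rose by 5.37. POT1, the thiolase that ends each cycle, stood at 299 and 325 CPM in SPO, against 1.52 and 2.67 CPM in preSPO, and rose by 7.11. YAT1, the outer mitochondrial carnitine acetyltransferase, stood at 1385 and 1085 CPM in SPO, against 2.77 and 3.68 CPM in preSPO, and rose by 8.53 (SE 0.394, edgeR adjusted p = 3.41e-06). CAT2, the carnitine acetyltransferase of peroxisomes and mitochondria, rose by 5.15, CTA1, the peroxisomal catalase, by 4.56, and PXA1, part of the fatty acid transporter of the peroxisome, by 4.52. The members that fell act in activation and regulation: the acyl-CoA synthetases FAA1 (-1.0) and FAA4 (-1.20), PCS60 (-1.33), the ATP carrier ANT1 (-1.46), and OAF1 (-0.79) and PIP2 (-0.77), which together form the oleate-activated transcription factor. The PIP2 call was lost without SPO replicate 2, preSPO replicate 1 or either prion SPO library. These 6 were named after their values were seen. Of 29 peroxins, the proteins that build peroxisomes, 15 rose and 1 fell, but 3 rose and 1 fell on all 3 scales and 8 rose without preSPO replicate 1. PEX18, a receptor partner for import of thiolase, stood at 101 and 97.9 CPM in SPO, against 6.37 and 8.68 CPM in preSPO, and rose by 3.69, and PEX11, which drives peroxisome division, rose by 2.16.

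The enzymes that burn acetyl units rose as well, from the tricarboxylic acid cycle to the ATP synthase. In the cycle, 20 of 23 members tested rose and 1 fell, with a median of 1.81, and 14 and 1 did so on all 3 scales. CIT3, a mitochondrial citrate and methylcitrate synthase, stood at 218 and 356 CPM in SPO, against 3.05 and 4.61 CPM in preSPO, and rose by 6.17. SDH1, the flavoprotein of succinate dehydrogenase, stood at 1337 and 1596 CPM in SPO, against 97.1 and 112 CPM in preSPO, and rose by 3.81, with SDH2 at 3.99 and SDH4 at 2.77. FUM1, fumarase, rose by 3.47 and ACO1, aconitase, by 2.72. All members named here separated the media in both replicates, which their choice by small p favours. Among nuclear genes of the respiratory chain and ATP synthase, 35 of 39 rose and 1 fell, with a median of 1.85, and 24 and 1 did so on all 3 scales. The member that fell, COX5B, lost its call without SPO replicate 1 or preSPO replicate 2. COX8, a small subunit of cytochrome c oxidase, stood at 501 and 518 CPM in SPO, against 41.5 and 41.1 CPM in preSPO, and rose by 3.62. CYC1, cytochrome c isoform 1, stood at 122 and 159 CPM in SPO, against 18.4 and 24.9 CPM in preSPO, and rose by 2.69.

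Genes encoded in the mitochondrial genome rose in every tested member, 18 of 18, with a median of 3.56, and all 18 on all 3 scales. Some of these targets overlap in the genome, as AI2 and AI5_ALPHA do with COX1. The 18 are therefore not separate observations. COX1, the catalytic subunit of cytochrome c oxidase, stood at 1343 and 1593 CPM in SPO, against 115 and 119 CPM in preSPO, and rose by 3.65. COB, cytochrome b, stood at 118 and 163 CPM in SPO, against 12.7 and 9.90 CPM in preSPO, and rose by 3.66. OLI1, subunit 9 of the ATP synthase, stood at 8250 and 26410 CPM in SPO, against 373 and 671 CPM in preSPO, and rose by 5.05 (SE 0.660, edgeR adjusted p = 0.00035). Its SPO libraries lay far from each other but both well above the preSPO libraries. Mitochondrial RNAs of yeast lack long poly(A) tails, so their capture by oligo-dT is a property of each library that was not measured. Genes for the mitochondrial ribosome, which the nucleus encodes and the selection captures, did not follow. Of 43 members, 12 rose and 8 fell (27.9% and 18.6%, against 28.6% of all genes each way). Their median was 0.10 under TMM, -0.29 under library size and -0.83 on log2 TPM, and 0 rose and 8 fell on all 3 scales. The counts rested on single libraries, with 1 rising and 5 falling without preSPO replicate 1, 3 rising and 3 falling without SPO replicate 2, and 4 falling without preSPO replicate 2 or without both libraries whose MET17 departs from their state.

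**Figure D3:**
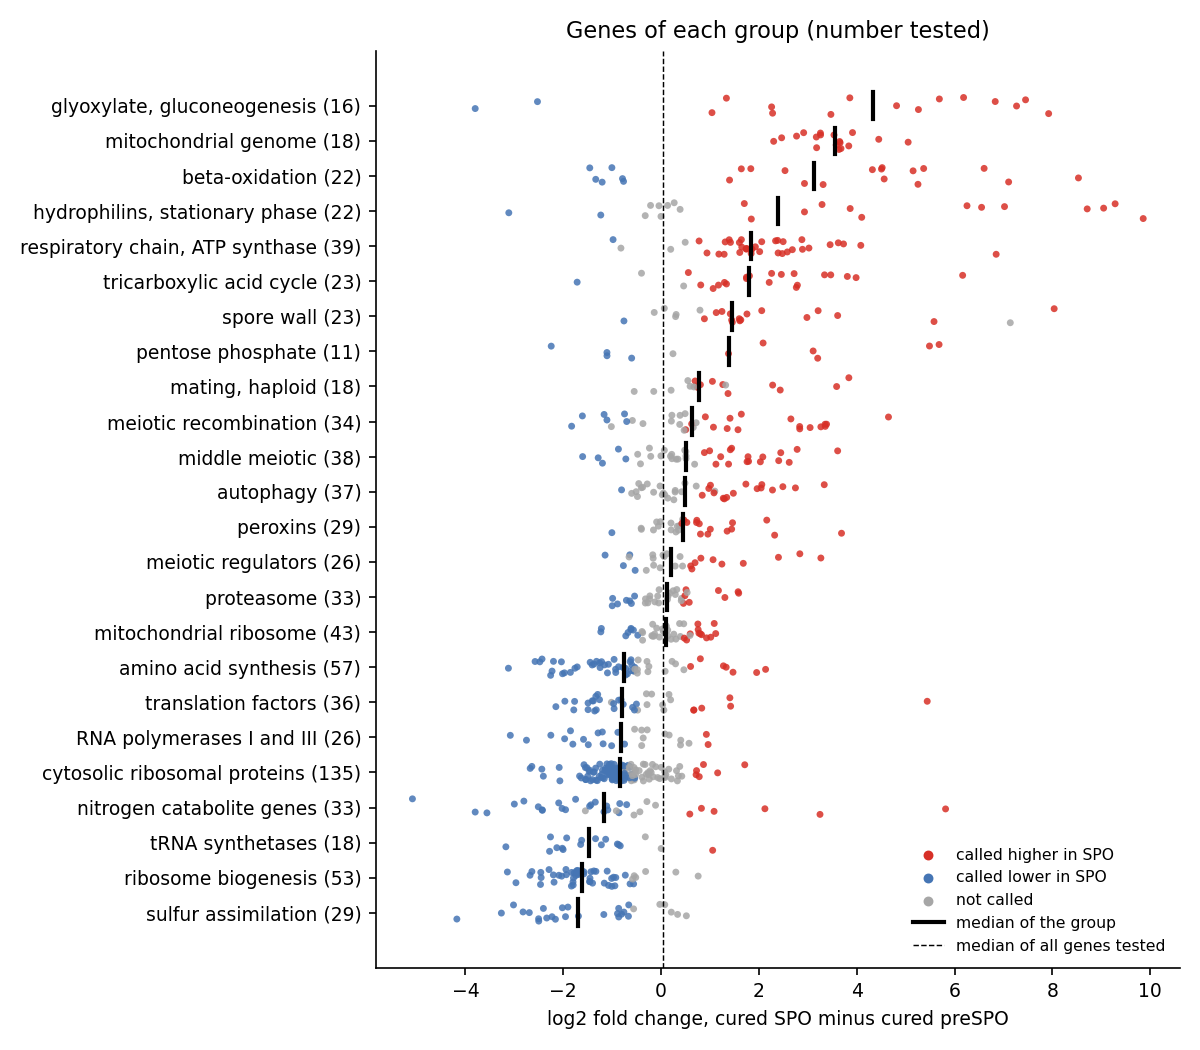
Log2 fold change of SPO over preSPO (TMM scale) for each tested member of the gene groups, 1 point per gene, with the median of each group and the median over all genes, 0.03. Glyoxylate and gluconeogenesis genes have a median of 4.34 and ribosome biogenesis genes of -1.62.

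Many enzymes of yeast exist in pairs of which a member serves growth on glucose and its partner growth without it, and several pairs exchanged places. ADH2, the alcohol dehydrogenase that oxidizes ethanol, made up 75.7% and 84.7% of ADH1 plus ADH2 TPM in SPO, against 1.93% and 3.00% in preSPO. ACS1 made up 95.9% and 96.2% of the acetyl-CoA synthetase TPM in SPO, against 11.7% and 15.7% in preSPO. GLK1, glucokinase, made up 90.3% and 83.1% of GLK1 plus HXK2 in SPO, against 24.7% and 24.8% in preSPO. In each of these the minor partner of preSPO was the major partner of both SPO libraries. The same exchange ran through the pentose phosphate pathway, where GND2 made up 88.7% and 83.4% of its pair with GND1 in SPO, against 2.06% and 2.95% in preSPO, and TKL2 made up 88.3% and 81.5% of its pair with TKL1, against 3.09% and 8.96%. Here 1 partner rose and the other fell: GND2 had a log2 fold change of 5.68 and GND1 of -2.24, TKL2 of 5.49 and TKL1 of -1.11. IDP2, the cytosolic NADP isocitrate dehydrogenase, made up 83.6% and 82.1% of its pair with mitochondrial IDP1 in SPO, against 12.6% and 13.4% in preSPO. GDH3, a glutamate dehydrogenase of nonfermentable carbon sources, made up 77.8% and 78.7% of its pair with GDH1 in SPO, against 9.74% and 7.97% in preSPO. NDE2, an external NADH dehydrogenase, made up 57.6% and 51.1% of its pair with NDE1 in SPO, against 1.26% and 1.61% in preSPO.

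The exchange reached translation and respiration too. HEF3, a paralog of elongation factor 3, made up 65.8% and 59.9% of its pair with YEF3 in SPO, against 0.872% and 1.5% in preSPO. HEF3 stood at 627 and 510 CPM in SPO, against 11.6 and 14.3 CPM in preSPO, while YEF3 stood at 326 and 341 CPM in SPO, against 1330 and 939 CPM in preSPO. So the paralog rose by 5.44 where the main factor fell by 1.77. In the other direction, COX5B and CYC7, the forms of cytochrome oxidase subunit 5 and cytochrome c known to be made under low oxygen, lost their majority. COX5B made up 12.4% and 16% of its pair with COX5A in SPO, against 61.5% and 67.5% in preSPO, and CYC7 made up 26.3% and 34.0% of its pair with CYC1 in SPO, against 84.8% and 83.0% in preSPO. CYC7 itself was not called under TMM (log2 fold change -0.82), while CYC1 rose by 2.69. DESeq2 called CYC7 lower (-0.83, adjusted p = 0.0366), as did library size scaling (-1.26), log2 TPM (-1.88) and both replicate blocks. In the enolase pair the share lay close together in both media. ENO1 made up 60.3% and 69.1% of its pair with ENO2 in SPO, against 61.6% and 59.8% in preSPO, and neither gene was called under TMM. DESeq2 called ENO1 higher (0.69, adjusted p = 0.0154), as did edgeR without either prion preSPO library. Kallisto divides reads between similar copies by an estimate, so shares of near-identical partners are less certain than those of diverged ones.

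**Figure D4:**
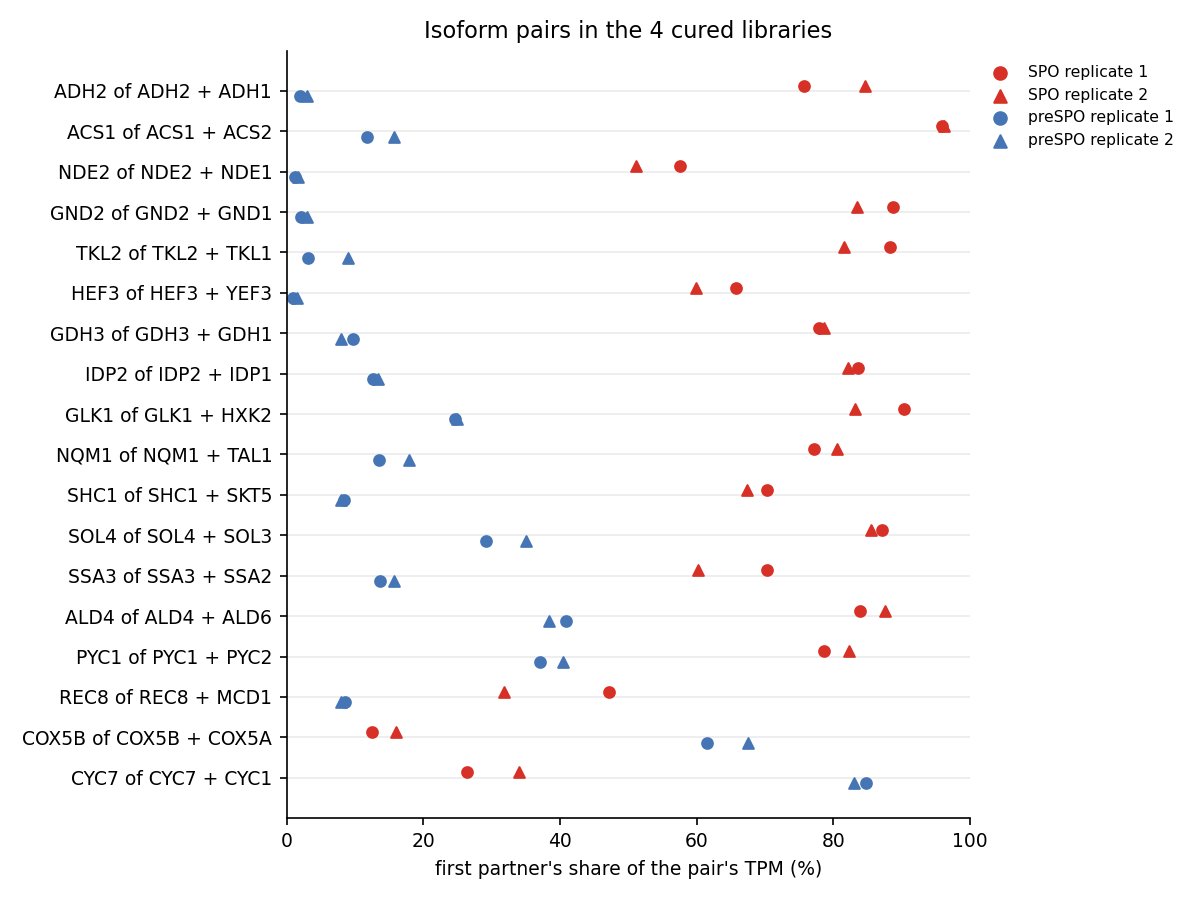
Share of the first-named partner in the summed TPM of each isoform pair, in percent, for SPO and preSPO libraries, 1 point per library. ADH2, ACS1, GND2 and TKL2 hold more than 75% in SPO and a minority in preSPO, while COX5B and CYC7 lie below 50% in SPO and above it in preSPO.

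Regulators of entry into meiosis rose in part. IME1, the master activator of meiosis, stood at 111 and 116 CPM in SPO, against 18.0 and 14.1 CPM in preSPO, and rose by 2.84 (SE 0.266, edgeR adjusted p = 7.03e-05), by 1.74 on log2 TPM. RIM4, an RNA-binding protein that Ime1 induces and that holds back translation of late mRNAs, stood at 240 and 177 CPM in SPO, against 21.2 and 21.9 CPM in preSPO, and rose by 3.27. IME2, the meiotic kinase that follows Ime1, stood at 18.4 and 17.4 CPM in SPO, against 15.9 and 13.4 CPM in preSPO, and was not called (log2 fold change 0.29, SE 0.281, edgeR adjusted p = 0.399). NDT80, the activator of middle genes, stood at 44.9 and 51.1 CPM in SPO, against 31.0 and 31.2 CPM in preSPO. The NDT80 libraries did not overlap, but the change of 0.63 (edgeR adjusted p = 0.0112) turned to -0.33 on log2 TPM and lost its call under library size and without SPO replicate 2, preSPO replicate 1 or preSPO replicate 2. SUM1, the repressor of middle genes, stood at 125 and 134 CPM in SPO, against 38.6 and 69.7 CPM in preSPO (log2 fold change 1.25), and UME6, which holds early genes off during growth and turns them on with Ime1, at 137 and 162 CPM, against 48.9 and 93.5 CPM (1.06). RME1, a repressor of IME1 normally active in haploid cells, rose by 1.68, and SLZ1, a partner of the mRNA methyltransferase Ime4 in meiosis, by 2.40. RPD3, the histone deacetylase recruited by Ume6, fell by 1.14. Of 26 regulators tested, 10 rose and 4 fell (38.5% and 15.4%, against 28.6% of all genes each way). On all 3 scales 3 rose and 4 fell. Without both libraries whose MET17 departs from their state 6 rose, and without SPO replicate 2, preSPO replicate 1 or either prion SPO library the count lower was 2. The median was 0.21 under TMM, -0.19 under library size and -0.70 on log2 TPM. The calls of SUM1, UME6 and RME1 were lost on log2 TPM.

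Genes of meiotic recombination were higher in SPO for a subset. Of 34 members tested, 17 rose and 6 fell, with a median of 0.64 that turned to -0.32 on log2 TPM, and 8 and 6 did so on all 3 scales. DMC1, the meiotic strand-exchange protein, stood at 65.8 and 98.4 CPM in SPO, against 7.75 and 8.34 CPM in preSPO, and rose by 3.35 (SE 0.311, edgeR adjusted p = 6.67e-05). REC8, the meiotic cohesin, stood at 30.2 and 22.2 CPM in SPO, against 2.63 and 2.37 CPM in preSPO, and rose by 3.38. CSM4, which moves telomere-led chromosomes in prophase, stood at 27.4 and 31.8 CPM in SPO, against 0.831 and 1.35 CPM in preSPO, and rose by 4.65. REC114, a partner of the break-making complex, rose by 2.83. These genes, named for their small p, were apart between media in every library. SPO11, which makes the breaks, stood at 15.4 and 17.9 CPM in SPO, against 8.86 and 7.24 CPM in preSPO, a rise of 1.07 whose call was lost without SPO replicate 2 or preSPO replicate 2. The SPO11 change was 0.65 under library size (edgeR adjusted p = 0.102) and 0.050 on log2 TPM (limma adjusted p = 0.918), neither called. HOP1, a protein of the chromosome axis, rose by 0.91 and ZIP1, of the synaptonemal complex, by 0.63, both of which turned to below 0 on log2 TPM (-0.06 and -0.28). Neither was called under library size or without SPO replicate 2; HOP1 also lost its call without preSPO replicate 2, and ZIP1 without SPO replicate 1 or preSPO replicate 1. Those that fell were SKI8 (-1.83), which also serves RNA decay, REC102 (-1.61), CST9 (-1.16), MSH5 (-1.10), MSH4 (-0.75) and MER1 (-0.70), of which MSH4 lost its call without SPO replicate 1 or preSPO replicate 2. The MER1 call was lost without SPO replicate 1, SPO replicate 2, preSPO replicate 1 or either prion SPO library, and in the 4 cured libraries alone. These 6 and SPO11, HOP1 and ZIP1 were named after their values were seen. In sum the 34 genes held 0.0339% and 0.0290% of TPM in SPO, against 0.0321% and 0.0284% in preSPO. With TAR1 and mitochondrial targets left out of the total, the shares were 0.04494% and 0.04017% in SPO, against 0.03585% and 0.0322% in preSPO.

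The region before DMC1 is shown because it carries the core of URS1, GGCGGC, on the opposite strand from 138 to 133 bases before the start codon (chrV:548121-548420, R64, + strand; capitals mark the core).
DMC1: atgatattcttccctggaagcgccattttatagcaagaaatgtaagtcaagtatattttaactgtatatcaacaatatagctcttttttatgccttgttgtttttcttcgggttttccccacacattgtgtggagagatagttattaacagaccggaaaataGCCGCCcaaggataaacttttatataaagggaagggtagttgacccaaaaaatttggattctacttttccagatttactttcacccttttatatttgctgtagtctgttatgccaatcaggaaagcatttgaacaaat
GGCGGC, on either strand, was present before 61.8% of the 34 recombination genes and 5.22% of all 5808 genes with a 300-base window. Recombination genes with it had a median log2 fold change of 1.57 and those without it of 0.39.

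Middle sporulation genes gave a mixed picture. Of 39 members, 38 were tested, of which 17 rose and 5 fell, with 2 lower without both libraries whose MET17 departs from their state. The median was 0.51 with TMM and -0.37 on log2 TPM, and 7 rose and 5 fell on all 3 scales. CRR1, a putative glycosidase of the spore wall, stood at 48.5 and 54.8 CPM in SPO, against 3.46 and 4.74 CPM in preSPO, and rose by 3.61 (SE 0.241, edgeR adjusted p = 1.49e-05). AMA1, the meiotic activator of the anaphase-promoting complex, stood at 23.4 and 20.2 CPM in SPO, against 3.18 and 4.53 CPM in preSPO, and rose by 2.45. SMK1, the kinase of spore wall assembly, stood at 20.4 and 13 CPM in SPO, against 4.57 and 3.34 CPM in preSPO, and rose by 2.08, a call lost on log2 TPM. SPO19, a protein of the prospore membrane, rose by 2.78, SPR3, a meiotic septin, by 2.62, and SMA1, of prospore membrane assembly, by 2.03. DON1, a protein of the prospore membrane edge, was more abundant, at 107 and 181 CPM in SPO, against 35.9 and 47.2 CPM in preSPO, and rose by 1.79. Each of these genes separated the media, and most were named for their small p. SPS1, a kinase of spore formation, had -0.48 and SPS2, a spore wall protein, 0.31, neither called under TMM. On log2 TPM SPS1 was called lower (-0.94, limma adjusted p = 0.0394). ADY3, a protein of the leading edge of the prospore membrane, fell by 1.60. SPS1, SPS2 and ADY3 were chosen after their values were seen. The 39 genes held 0.0454% and 0.0374% of TPM in SPO, against 0.0625% and 0.0583% in preSPO. With TAR1 and mitochondrial targets left out of the total, the shares were 0.06023% and 0.05175% in SPO, against 0.06991% and 0.06608% in preSPO.

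The region before CRR1 is shown for its copy of the MSE (chrXII:567923-568222, R64, - strand; capitals mark the element, 147 to 141 bases before the start codon).
CRR1: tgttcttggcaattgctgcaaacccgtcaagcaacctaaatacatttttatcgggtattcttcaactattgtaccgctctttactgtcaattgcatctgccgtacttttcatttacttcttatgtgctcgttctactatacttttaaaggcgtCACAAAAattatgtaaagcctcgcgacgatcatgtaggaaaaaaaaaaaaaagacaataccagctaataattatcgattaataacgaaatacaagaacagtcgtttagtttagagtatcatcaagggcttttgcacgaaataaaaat
The MSE was searched on either strand as CACAAAA and, in other known forms of the element, as CACAAAT. The forms with CGCAAAA were searched too, as were those with CGCAAAT. A match was present before 78.9% of the 38 middle genes, 47.8% of the 23 spore wall genes and 19.8% of all genes. Middle genes with it had a median of 0.94 and those without it of 0.37. Among all genes called higher the share was 19.4%, and among those called lower 18.9%.

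Spore wall genes rose more often than they fell. Of 26 members, 23 were tested, of which 16 rose and 1 fell, with a median of 1.46, and 6 and 1 did so on all 3 scales. SPS100, which protects the maturing spore wall, stood at 2439 and 1181 CPM in SPO, against 5.54 and 7.91 CPM in preSPO, and rose by 8.04 (SE 0.494, edgeR adjusted p = 1.15e-05). CDA1, a chitin deacetylase of the chitosan layer, stood at 22.5 and 50.6 CPM in SPO, against 0.415 and 0.931 CPM in preSPO, and rose by 5.58. SHC1, an activator of the chitin synthase in spores, stood at 68.9 and 45.4 CPM in SPO, against 6.51 and 5.80 CPM in preSPO, and rose by 3.21, while its vegetative partner SKT5 fell by 1.46. GSC2, the glucan synthase subunit used in spores and under stress, stood at 1416 and 919 CPM in SPO, against 287 and 273 CPM in preSPO, and rose by 2.06, while its partner FKS1 had a log2 fold change of -0.34 and was not called, but was called lower under library size (-0.73) and on log2 TPM (-1.26). SGA1, the glucoamylase that breaks down glycogen late in sporulation, rose by 2.98. Genes of the outermost dityrosine layer were not called higher. DIT1, its first enzyme, stood at 8.39 and 9.19 CPM in SPO, against 15.6 and 14.4 CPM in preSPO (log2 fold change -0.76), a call lost without SPO replicate 1, preSPO replicate 1 or preSPO replicate 2. DIT2, its second enzyme, reached at most 6.58 CPM and was not called (0.80); both were chosen after their values were seen.

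**Figure D5:**
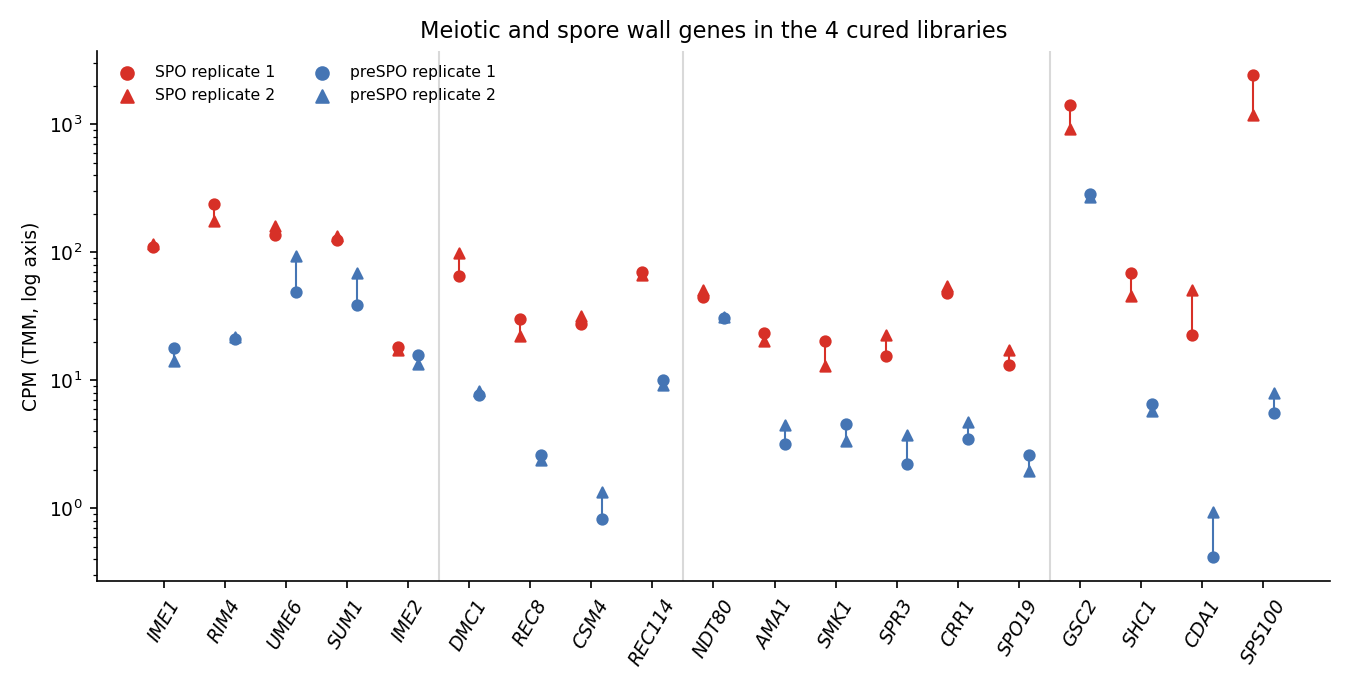
Normalised CPM on a log axis of genes of sporulation in each cured library, SPO libraries left of preSPO libraries, ordered by role: regulators, recombination, middle genes and spore wall. IME1 and RIM4 separate the media at 111 to 240 CPM in SPO, IME2 stays between 13.4 and 18.4 CPM in all 4 libraries, and SPS100 reaches 1181 and 2439 CPM in SPO.

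Haploid-specific genes, which an a/alpha diploid keeps off, were low in both media. Of 20 members, 18 were tested, of which 10 rose and 8 were not called, but 3 rose on all 3 scales and 6 without both libraries whose MET17 departs from their state. MFA1, an a-factor gene chosen after its value was seen, had 0 counts in all 4 libraries. In sum the list held 0.0175% and 0.0133% of TPM in SPO, against 0.0123% and 0.0117% in preSPO. FUS3, a kinase of mating, stood at 24.3 and 29.9 CPM in SPO, against 2.08 and 2.37 CPM in preSPO (log2 fold change 3.59), and AGA2, the a-agglutinin subunit, at 20.6 and 19.6 CPM, against 1.25 and 1.48 CPM (3.84). The part of haploid cells in the results was not tested.

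Genes of ribosome production fell, a direction that the other scales favour, so their counts on all 3 scales add little. Of 137 cytosolic ribosomal protein genes 135 were tested, of which 85 fell and 6 rose, with a median of -0.84, and 85 and 1 did so on all 3 scales. The count of lower genes rested on single libraries, with 53 without SPO replicate 1, 55 without preSPO replicate 2 and 28 without both libraries whose MET17 departs from their state. RPL13A stood at 125 and 111 CPM in SPO, against 635 and 644 CPM in preSPO, and fell by 2.44, and RPS26B fell by 2.40. RPS22B, at 174 and 203 CPM in SPO, against 50.7 and 64.2 CPM in preSPO, rose by 1.71. Most of these genes come as near-identical copies, so the split between copies is uncertain while the summed share of TPM is not affected by it. Among 53 ribosome biogenesis genes (NOP, UTP and RRP factors), 47 fell and 6 were not called, with a median of -1.62, and 47 fell on all 3 scales. UTP13, a subunit of the small-subunit processome, stood at 31.1 and 26.6 CPM in SPO, against 236 and 211 CPM in preSPO, and fell by 2.96. NOP1, the fibrillarin that methylates ribosomal RNA, stood at 39.7 and 33.5 CPM in SPO, against 143 and 137 CPM in preSPO, and fell by 1.94. Both SPO libraries lay far below both preSPO libraries in UTP13 and NOP1, which were named for their small p.

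The machinery that makes and uses ribosomal and transfer RNA followed. Of 26 subunits and factors of RNA polymerases I and III, 14 fell and 2 rose, and 14 fell and 0 rose on all 3 scales. RPC40, shared by both polymerases, stood at 62.13 and 50.03 CPM in SPO, against 516 and 428 CPM in preSPO, and fell by 3.08. Of 18 cytosolic aminoacyl-tRNA synthetases, 15 fell and 1 rose, with a median of -1.48, and 15 fell and 0 rose on all 3 scales. MES1, the methionyl-tRNA synthetase, stood at 27.7 and 30.7 CPM in SPO, against 300 and 230 CPM in preSPO, and fell by 3.17. Of 36 translation factors tested, 21 fell and 6 rose, and 21 fell and 1 rose, HEF3, on all 3 scales; 3 rose without both libraries whose MET17 departs from their state. SUI2, the alpha subunit of initiation factor 2, fell by 1.78.

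IMP3, a component of the small-subunit processome, was among the genes with the largest falls, at 13.8 and 7.59 CPM in SPO, against 125 and 99.7 CPM in preSPO (log2 fold change -3.50, SE 0.383, edgeR adjusted p = 0.000146). Its upstream region is shown because it carries both elements known from ribosome biogenesis promoters, the RRPE from 102 to 95 and the PAC, on the opposite strand, from 82 to 75 bases before the start codon (chrVIII:393234-393533, R64, + strand; capitals mark the elements, the RRPE first).
IMP3: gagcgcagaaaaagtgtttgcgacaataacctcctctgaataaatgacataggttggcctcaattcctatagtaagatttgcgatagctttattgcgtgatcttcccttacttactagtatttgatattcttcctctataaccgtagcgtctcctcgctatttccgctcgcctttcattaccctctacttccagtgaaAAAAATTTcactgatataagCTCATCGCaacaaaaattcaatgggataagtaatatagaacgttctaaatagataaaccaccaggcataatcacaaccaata
The PAC, GCGATGAG on either strand, was present before 43.4% of the 53 biogenesis genes and 4.18% of all genes, and before 8.41% of lower and 1.58% of higher genes. The RRPE, AAAAATTT on either strand, was present before 75.5% of the biogenesis genes and 15.5% of all genes, and before 23.2% of lower and 10.5% of higher genes. Over all genes, those with a PAC had a median log2 fold change of -0.90 and those without it of 0.02. The PAC was present before 0.741% of ribosomal protein genes.

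Genes that assimilate sulfur and scavenge nitrogen fell in SPO. Of 29 sulfur genes, 23 fell and 6 were not called, with a median of -1.69, and 23 fell on all 3 scales; 17 fell without both libraries whose MET17 departs from their state. MET3, ATP sulfurylase, the first enzyme of sulfate assimilation, stood at 32.0 and 26.7 CPM in SPO, against 616 and 435 CPM in preSPO, and fell by 4.17 (SE 0.386, edgeR adjusted p = 6.60e-05). SAM2, an S-adenosylmethionine synthetase, stood at 30.8 and 35.9 CPM in SPO, against 393 and 252 CPM in preSPO, and fell by 3.26, and SUL2, a sulfate permease, fell by 2.40. MET17 itself has 0 and 1 counts in the preSPO libraries compared here, and its part in the preSPO level of the other sulfur genes was not tested. Of 33 genes of nitrogen catabolism and its regulation, 21 fell and 6 rose, with a median of -1.17, and 21 and 3 did so on all 3 scales. DAL5, the allantoate permease, stood at 31.1 and 53.0 CPM in SPO, against 1504 and 1386 CPM in preSPO, and fell by 5.08 (SE 0.320, edgeR adjusted p = 1.15e-05), the largest fall of a gene that met the naming rule. DAL4, the allantoin permease, fell by 3.56, DUR3, a urea transporter, by 3.00, and MEP2, the high-affinity ammonium permease, by 2.80. MEP1, a paralog of MEP2, rose by 2.12, and PUT4, the proline permease, stood at 1071 and 953 CPM in SPO, against 101 and 112 CPM in preSPO, a rise of 3.25. GATAA, the core bound by GATA factors of nitrogen control, was present before 78.8% of these genes and 61.4% of all genes. Those with it had a median of -1.45 and those without it of -0.86.

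Genes of amino acid synthesis fell. Of 57 biosynthetic genes 38 fell and 7 rose, and 38 and 2 did so on all 3 scales. HIS1, the first enzyme of histidine synthesis, stood at 107 and 109 CPM in SPO, against 572 and 715 CPM in preSPO, and fell by 2.57. Among 23 amino acid permeases as many rose as fell, 8 each way (34.8%, against 28.6% of all genes), with a median of 0.02. There were 5 lower without preSPO replicate 1 or without both libraries whose MET17 departs from their state, and 7 and 8 did so on all 3 scales. TAT1, a permease of branched-chain and aromatic amino acids, stood at 281 and 219 CPM in SPO, against 12.6 and 11.3 CPM in preSPO, and rose by 4.39, and ALP1, a permease of basic amino acids, rose by 5.14. Of 17 hexose transporters tested 7 rose and 5 fell (41.2% and 29.4%, against 28.6% of all genes each way), and 2 and 5 did so on all 3 scales. HXT2, a high-affinity transporter, stood at 36.5 and 23.5 CPM in SPO, against 707 and 724 CPM in preSPO, and fell by 4.6 (SE 0.272, edgeR adjusted p = 1.02e-05). HXT1 and HXT3, low-affinity transporters, fell by 2.61 and 2.81. HXT5, known to be induced by starvation and slow growth, stood at 2583 and 1874 CPM in SPO, against 19.9 and 23.6 CPM in preSPO, and rose by 6.67. HXT11, a further member of the family, rose by 3.11. HXT7, which is near-identical to HXT6, had -2.56 while HXT6 had -0.15, so the split between them is uncertain. HXT6 was not called under TMM but was called lower on log2 TPM (-1.18, limma adjusted p = 0.000622). It was chosen after its value was seen. Glycolysis showed no common direction, with 5 of 21 genes higher and 2 lower (23.8% and 9.52%, against 28.6% of all genes each way). On all 3 scales the counts were 4 and 2. TDH3, glyceraldehyde-3-phosphate dehydrogenase, rose by 2.27, and PDC5, a pyruvate decarboxylase, stood at 974 and 3065 CPM in SPO, against 11860 and 10920 CPM in preSPO, and fell by 2.50.

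Further groups moved in part, set against 28.6% of all genes called each way under TMM. Phosphate genes stood near that share for falls (43.5% higher, 26.1% lower), as did replication genes (39.0% and 24.4%). Of 37 autophagy genes 16 rose and 1 fell (8 and 1 on all 3 scales), led by ATG34, a receptor for vacuolar hydrolases, at 371 and 377 CPM in SPO, against 32.8 and 40.9 CPM in preSPO (log2 fold change 3.34), and ATG39, a receptor for autophagy of the nucleus, at 2.75. Of 31 redox genes 16 rose and 4 fell (8 and 4 on all 3 scales), and of 29 iron genes 13 and 4 (10 and 4), with the siderophore transporter SIT1 at 579 and 350 CPM in SPO, against 34.3 and 31.2 CPM in preSPO (3.83). PHO89, a sodium-phosphate transporter, stood at 1148 and 551 CPM in SPO, against 2.77 and 2.07 CPM in preSPO, and rose by 8.51, in a list of 23 phosphate genes of which 10 rose and 6 fell (5 and 6 on all 3 scales; 3 lower without preSPO replicate 1). Of 41 replication genes 16 rose and 10 fell, but 3 rose on all 3 scales, and the count higher was 10 without SPO replicate 1 or preSPO replicate 1 and 9 without preSPO replicate 2 or without both libraries whose MET17 departs from their state. In this list the ribonucleotide reductase genes RNR2 and RNR4 rose by 3.21 and 2.84. Among 7 septins the 5 vegetative ones fell, by 2.0 for CDC10 and 1.65 for SHS1 down to 0.57 for CDC11, whose call was lost without SPO replicate 2 or preSPO replicate 1. The meiotic septin SPR3 rose, and on all 3 scales 5 fell and 1 rose.

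Named for the largest falls outside these groups were SUT1, a regulator of sterol uptake, at 8.84 and 10.1 CPM in SPO, against 122 and 140 CPM in preSPO (log2 fold change -3.76), KTD1 (-3.70) and RMD6 (-3.61). RCK1, a kinase of the oxidative stress response, stood at 3.86 and 5.03 CPM in SPO, against 84.2 and 98.1 CPM in preSPO, and fell by 4.28. A switch between below 1 TPM in both libraries of a medium and at least 10 TPM in both of the other was rare. CDA1, YML089C and YAT1 were switched on this way in SPO, and RCK1, YLR035C-A and YDR316W-B were switched off. YLR035C-A and YDR316W-B are reading frames of Ty elements, whose near-identical copies share reads, so which copy fell is not resolved. These last 2 and YML089C were chosen after their values were seen.

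Position on the chromosome and coding length were also set against the response. Tested genes under 30 kb from a chromosome end numbered 348, of which 35.3% rose and 22.4% fell, with a median of 0.27. Of the other 5475 genes with coordinates, 28.0% rose and 31.0% fell, with a median of -0.03. The 1270 shortest genes (117 to 501 bases of coding length) had a median log2 fold change of 0.40, and the 1267 longest (2046 to 14733 bases) of -0.21. On log2 TPM these medians were -0.57 and -1.07.

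In the prion libraries, which share the media and the labels' protocol, 1660 genes rose and 1720 fell in SPO (26.2% and 27.1%). Of the genes higher in cured SPO, 1335 were also higher in prion SPO, which is 73.5% of the cured and 80.4% of the prion calls. Of those lower in cured SPO, 1398 were also lower in prion SPO, 76.9% of the cured and 81.3% of the prion calls, and 12 genes were called in opposite directions. A test of the difference between the responses, the interaction of state and medium, called 1 of 6346 genes (0.0158%), with 791 genes at an unadjusted p under 0.05 and 133 called by DESeq2. That gene was AI2, a maturase reading frame within an intron of COX1, at 588 and 654 CPM in cured SPO, against 65.5 and 71.4 CPM in cured preSPO, and at 249 and 283 CPM in prion SPO, against 180 and 157 CPM in prion preSPO. Its response was larger in cured libraries by 2.52 on the log2 scale (SE 0.258, edgeR adjusted p = 0.0341). The call was lost without both libraries whose MET17 departs from their state (adjusted p = 0.0983) and with state and replicate number together as a block (adjusted p = 0.0587). COX1 itself had an interaction of 1.18 and was not called (edgeR adjusted p = 0.203), and AI2 shares sequence with COX1, so the split of reads between them is uncertain. Mitochondrial genome genes as a group had a median of 3.56 in cured and 2.61 in prion libraries, a difference that was not tested for the group.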

How the data were processed

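Poly(A) RNA was selected with oligo-dT, per the labels' protocols, and the deposited tables were made by the authors with kallisto against build R64, per the submitters' processing notes; no source used here gives its version, index or strand setting. Each deposited table gives a target's expected count, estimated by kallisto and here rounded to a whole number. It also gives TPM, computed by the authors with the same program. Target lengths are coding lengths, and 6711 of 6713 are divisible by 3. Gene symbols and coordinates came from the RefSeq R64 table, which matched 6026 targets (89.8%) by locus tag.

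The quasi-likelihood F-test of edgeR 4.0.16 was run in R 4.3.3 with 1 mean per group, fitted to the 8 libraries together (4 residual degrees of freedom) after TMM normalization and filterByExpr, with two-sided p-values adjusted by Benjamini-Hochberg over 6346 genes and called at 0.05. Alternatives were DESeq2 1.42.0, other scalings and filters, limma-trend (limma 3.58.1) on log2(TPM + 1), replicate blocks, a test against a log2 change of 1 and leaving out each library. Leaving out both SPO libraries whose MET17 counts depart from their state was added after the data were seen. The labels do not say that a replicate number marks a shared culture, and libraries were treated as unpaired.

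The libraries, the 50 gene lists and the tests were chosen with earlier results of these data known. Genes were named by a rule: VTS1, MET17 and 8 regulators of meiosis; up to 10 largest and 10 smallest log2 fold changes among called genes that have a standard symbol, a mean of 10 CPM or more in a medium and media that do not overlap; per list, the members of smallest p, 6 at most; partners of isoform pairs; the most abundant targets of each medium; and interaction calls. Genes outside the rule are marked where they are named. Upstream windows are the 300 bases before the start codon in RefSeq R64, available for 5808 tested genes, and were searched on both strands. Results on some genes are not reported here.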

Additional observations from a re-analysis of the deposited data

Results flagged for a closer look

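AI2, a maturase reading frame within an intron of COX1, was the 1 gene called in the edgeR test of the difference between cured and prion responses. It was not alone in direction, since mitochondrial genome genes as a group had a median of 3.56 in cured and 2.61 in prion libraries. AI5_ALPHA, a reading frame that overlaps AI2, had an interaction of 1.68 and was not called (edgeR adjusted p = 0.0666). The response of AI2 was larger in cured libraries by 2.52 on the log2 scale (SE 0.258, edgeR adjusted p = 0.0341). In prion libraries AI2 itself rose by 0.66 (edgeR adjusted p = 0.0141). Over the fits that left out 1 library each the adjusted p lay between 0.0315 and 0.194, and it was 0.0879 when tested against a log2 difference of 1. The cause was not tested.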

How the results depend on the processing

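Against 1816 higher and 1817 lower genes, a test against a log2 change of 1 called 658 and 492, library size scaling 1081 higher, and log2(TPM + 1) 549 higher and 3464 lower. Leaving out 1 library gave 1313 to 1924 higher and 1451 to 1929 lower genes. Deviations of same-numbered libraries correlated at 0.316 (SPO with preSPO, cured), 0.0714 (SPO with preSPO, prion), 0.182 (cured with prion, SPO) and 0.15 (cured with prion, preSPO). With state and replicate number together as a replicate block, which the labels do not name as a culture, 1972 rose and 1979 fell, and blocking on the number alone gave 1936 and 1940. The interaction count of 1 became 133 with DESeq2, 41 on log2(TPM + 1), 4 with library size scaling, 2 each with RLE size factors, robust estimation, at least 10 counts in every cured library, or both SPO libraries of departing MET17 left out, and 0 with the block of state and number, the test against a log2 change of 1, or TAR1 and mitochondrial targets removed. It ranged from 0 to 44 over fits without 1 library. With mitochondrial targets removed the AI2 call could not appear, since AI2 is itself a mitochondrial target. The causes of the other differences were not tested.

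On log2(TPM + 1) the direction turned for ADH1 (-0.10), DIT2 (-0.049), ENO1 (-0.30), ENO2 (-0.55), GDH1 (-0.39), HAP4 (-0.68), HOP1 (-0.062), HSP104 (-0.86), IME2 (-0.54), NDE1 (-0.49), NDT80 (-0.33), SPS2 (-0.47) and ZIP1 (-0.28). With library size scaling it turned for HAP4 (-0.10), HSP104 (-0.28), IME2 (-0.12) and SPS2 (-0.11). Over fits without 1 library the log2 fold change ran from -0.067 to 0.30 for HSP104, from -0.32 to 0.29 for YGP1, from -0.37 to 7.59 for YNL143C and from -0.62 to 0.19 for HXT6, which also had 0.19 without both SPO libraries of departing MET17. Depth was lowest in SPO replicate 1, at 4650288 counts, which limits genes of low level.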
